A study of Mus musculus with 29 samples.

Results

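The genes examined here control how stored triglyceride is broken down and how the lipid droplet that holds it is coated. All 10 genes of this set were present in the count table of 24770 gene rows: the lipase genes Pnpla2, Lipe, Mgll and Lpl, the lipase inhibitor gene G0s2, the droplet coat genes Plin1, Plin2, Plin4 and Plin5, and Cidec. Rows were picked by gene symbol, from a set of genes chosen with earlier results of these data known.

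RNA-seq was performed on brown adipose tissue (BAT) and gastrocnemius skeletal muscle (SkM) of wild-type male C57BL/6J mice under 4 conditions. Control mice ate chow freely and stayed sedentary, CR mice received a calorie-restricted ration reduced step by step, EX mice ate freely and ran on a treadmill 5 days a week, and CREX mice received both treatments. Interventions began at 8 weeks of age and lasted 8 weeks, and every mouse, controls included, was fasted for 6 h before tissue harvest, which was 24 h after the last run. The groups held 3 control, 4 CR, 4 EX and 4 CREX libraries in BAT, and 4 control, 3 CR, 4 EX and 3 CREX libraries in SkM, 1 per mouse and tissue. A short fast before harvest is therefore common to all groups, and the sources used here do not say which BAT and SkM libraries came from the same mouse.

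Triglyceride in a droplet is cleaved in sequence. Adipose triglyceride lipase (ATGL, encoded by Pnpla2) removes the first fatty acid, hormone-sensitive lipase (HSL, encoded by Lipe) the next, and monoglyceride lipase (encoded by Mgll) the last, while G0S2 binds and inhibits ATGL. Perilipins coat the droplet: perilipin 1 gates the lipases in adipocytes, perilipin 5 links droplets to mitochondria in oxidative tissues, perilipin 2 coats droplets in most cells, and perilipin 4 is found in adipocytes and striated muscle. CIDEC promotes the fusion of droplets into larger ones in adipocytes, and lipoprotein lipase (Lpl) works outside the cell, at the capillary wall, where it releases fatty acids from circulating lipoproteins.

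Libraries held 21047242 to 24919377 counts in BAT and 23050918 to 23425284 in SkM, and values below are CPM, counts scaled to the normalized library total, with 3 counts equal to 0.120 to 0.143 CPM (BAT) and 0.128 to 0.130 CPM (SkM). A gene was called differentially expressed (a DEG) when edgeR's Benjamini-Hochberg adjusted p over all genes tested was under 0.05 and the fold change was above 1.5. Some libraries stood apart. BAT libraries held between 5.86 and 6991 CPM of 10 skeletal muscle fibre genes (Myh4 and Acta1 the most abundant in SkM), 5.86 to 751 CPM in the control group and 1160 to 6991 CPM in the CREX group. SkM libraries CREX 2 and CREX 3 held 126 and 64.8 CPM of 8 slow fibre genes, among them Myh7 and Myl3, against 1353 to 2284 CPM in the control group. Libraries CR 1, CR 3, CREX 1 and EX 1 of SkM held 82.2, 97.3, 121 and 111 CPM of 8 adipocyte genes, among them Adipoq and Cfd, against 2.19 to 17.0 CPM in the control group. Defining markers were present in their own tissue in all libraries: BAT held 1273 to 2017 CPM of the adipocyte genes, the sums of the brown adipocyte genes, led by Ucp1 and Cidea, lay between 3490 and 7711 CPM in that tissue, and SkM held 126500 to 215200 CPM of the muscle fibre genes.

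The level of each gene was first placed in the control mice of each tissue, because brown fat and muscle store very different amounts of lipid. Pnpla2 was the most abundant member per kilobase of exon in both tissues, at 907 ± 28.7 CPM per kb in BAT (SD, n = 3) and 137 ± 12.1 CPM per kb in SkM (SD, n = 4). In BAT control mice the order on this scale went on with Cidec at 415 CPM per kb, G0s2 at 217, Lpl at 210, Lipe at 164, Plin2 at 128, Mgll at 123, Plin1 at 111, Plin4 at 87.7 and Plin5 at 59.2 CPM per kb. G0s2, with an SD of 74.4, and Lpl could not be separated, nor could Plin2, Mgll and Plin1 beyond their spread. The order was different in SkM control mice, where Lpl came next at 69.3 CPM per kb, then Plin4 at 42.9, Plin5 at 17.9, Mgll at 11.3, G0s2 at 9.73, Plin2 at 5.13 and Lipe at 4.6 CPM per kb. Mgll and G0s2 lay within their spread in that order, and so did Plin2 and Lipe. Cidec at 0.507 and Plin1 at 0.0388 CPM per kb closed the list, and Plin1 had 3 counts or fewer in 5 of the 14 SkM libraries. The lengths merge the exons of all annotated transcripts, 10478 bases for Lpl and 3020 for Pnpla2, and the rank of Lpl depends on them. By CPM alone Lpl was above Pnpla2 in SkM control mice (727 against 415) and below it in BAT control mice (2205 against 2738).

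**Figure D1:**
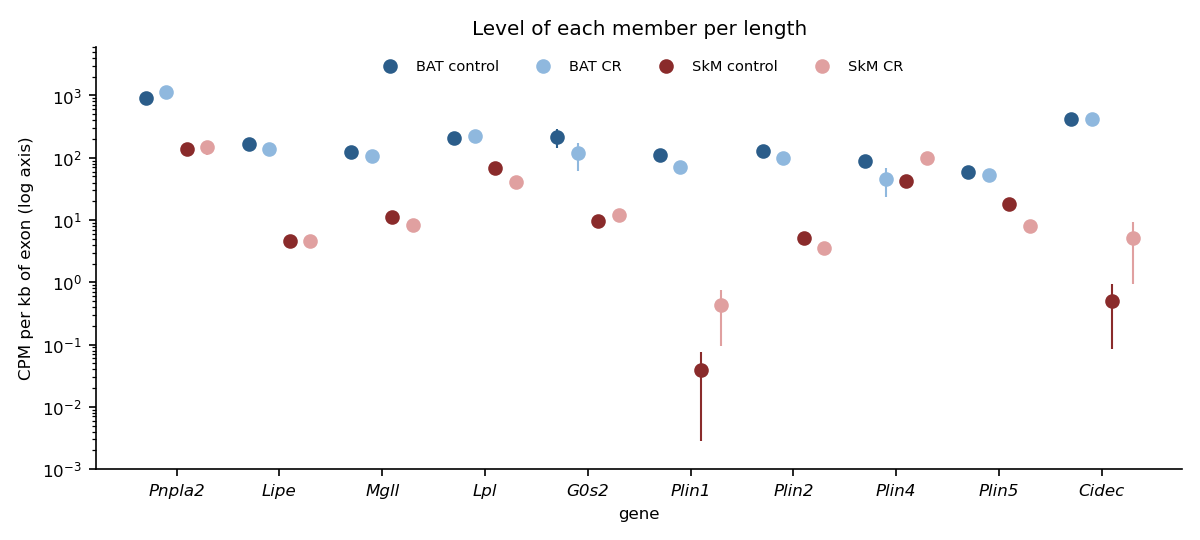
Mean level of each member in CPM per kilobase of exon (log axis) in the control and CR groups of BAT and SkM, with vertical lines of 1 SD. On this scale Pnpla2 is highest in both tissues, Plin1 and Cidec are lowest in SkM control mice, and in SkM CR mice Plin4 rises above Lpl.

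All 10 members were DEGs with the higher level in BAT than in SkM of control mice, where 60.0% of all genes tested were DEGs between the tissues in either direction. The gap was widest for Plin1 (log2 fold change 11.18, SE 0.32, adjusted p = 2.9e-10 by edgeR) and Cidec (9.39, SE 0.67, adjusted p = 2.37e-05), the adipocyte droplet proteins. Their size rests on 0 to 8 SkM control counts of Plin1 and 0 to 41 of Cidec per library, so it depends on the prior count of the fit. Lipe followed at 4.88, Plin2 at 4.37, G0s2 at 4.21, Mgll at 3.17 and Pnpla2 at 2.45 on the log2 scale. The narrowest gaps were those of Plin5 at 1.45, Lpl at 1.33 and Plin4 at 0.76, the 3 members that were DEGs in SkM under CR.

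Most calls under CR were found in SkM, among the perilipins and Lpl. Between the CR and control groups, 9 of the 10 members passed the filter on low counts, Plin1 being the exception, and 3 of the 9 were DEGs, beside 9.60% of all genes tested. Plin4 was upregulated, and Plin5 and Lpl were downregulated. Plin2 and Mgll also passed the adjusted p without reaching 1.5-fold, making 5 of 9 members by adjusted p alone, beside 14.0% of all genes. The median log2 fold change of the 9 members was 0.02, beside 0.0050 for all genes, since members moved in both directions.

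Plin4 (GRCm38, chr17:56100587-56109948) measured 231, 220, 255 and 287 CPM in the 4 control libraries and 555, 584 and 554 CPM in the 3 CR libraries of SkM. No CR library came near the control range. The change was a log2 fold change of 1.19 (SE 0.12, adjusted p = 0.000391 by edgeR), a fold change of 2.28. The same was seen when trained mice were compared: Plin4 measured 245, 235, 219 and 176 CPM in the EX group and 578, 548 and 475 CPM in the CREX group. Again no library overlapped, and the log2 fold change was 1.29 (SE 0.14, adjusted p = 0.00186 by edgeR). Plin4 was the 1 member of 10 called between the CREX and EX groups, a share close to the 8.87% of all genes tested. Over all 4 groups, with training in the model, CR raised Plin4 by 1.24 on the log2 scale (SE 0.088, adjusted p = 1.32e-07 by edgeR). On the per-length scale Plin4 moved from below Lpl in control SkM (42.9 against 69.3 CPM per kb) to above it in CR SkM (97.7 ± 2.96 against 40.4 ± 9.15 CPM per kb, SD, n = 3). This order depends on the merged exon lengths, 5777 bases for Plin4 and 10478 for Lpl, and a shorter Lpl length would raise Lpl. By CPM alone Plin4 also went from below Lpl (248 against 727) to above it (565 against 424).

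Plin5, the next gene along the same strand of chromosome 17 (chr17:56111597-56117606, 1648 bases from Plin4 in the RefSeq annotation), went the other way. It measured 40.0, 38.7, 40.3 and 30.6 CPM in the control libraries and 18.2, 15.4 and 16.9 CPM in the CR libraries of SkM. Every CR library lay below every control library. The log2 fold change was -1.15 (SE 0.13, adjusted p = 0.00056 by edgeR). In trained mice Plin5 measured 23.2, 23.9, 23.3 and 14.1 CPM in the EX group and 18.9, 6.24 and 6.15 CPM in the CREX group. These groups overlapped and the difference did not pass the test (log2 fold change -1.02, SE 0.45, adjusted p = 0.171 by edgeR). The 2 low CREX values belong to the libraries with few slow fibre transcripts, CREX 2 and CREX 3, and without both libraries the Plin5 difference was -0.16 (adjusted p = 0.839 by edgeR). Without CREX 1 instead, it was -1.77 (adjusted p = 0.000699). In these bulk libraries fewer cells of a type and less RNA per cell cannot be told apart.

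The promoter sequences of this neighbouring pair are shown because the genes lie side by side and moved in opposite directions in SkM, with that of Plin2, the other perilipin that was lower under CR in SkM. Each run is the 250 bases before 1 annotated start, from the RefSeq table of build GRCm38.p6, written 5′ to 3′ on the minus strand that carries the gene. They lie at chr17:56109783-56110032 for Plin4, chr17:56117549-56117798 for Plin5 and chr4:86670060-86670309 for Plin2. Capitals mark a nuclear receptor half-site, AGGTCA or its reverse complement.
Plin4: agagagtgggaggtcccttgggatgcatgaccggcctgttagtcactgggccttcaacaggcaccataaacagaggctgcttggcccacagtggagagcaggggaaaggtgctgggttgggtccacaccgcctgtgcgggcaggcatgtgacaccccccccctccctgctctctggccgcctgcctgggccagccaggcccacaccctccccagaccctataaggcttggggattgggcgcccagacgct
Plin5: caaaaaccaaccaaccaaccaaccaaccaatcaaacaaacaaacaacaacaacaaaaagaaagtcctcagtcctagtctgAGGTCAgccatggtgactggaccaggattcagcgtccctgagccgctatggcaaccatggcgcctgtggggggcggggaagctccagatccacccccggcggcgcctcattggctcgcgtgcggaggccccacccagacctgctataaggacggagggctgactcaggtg
Plin2: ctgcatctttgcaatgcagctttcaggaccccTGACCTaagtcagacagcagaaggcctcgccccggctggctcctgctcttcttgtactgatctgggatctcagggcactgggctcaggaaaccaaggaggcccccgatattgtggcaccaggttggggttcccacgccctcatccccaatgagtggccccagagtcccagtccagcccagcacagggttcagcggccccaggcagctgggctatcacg
The half-site starts 170 bases before this start of Plin5 and 218 bases before that of Plin2. These letters were not found in the Plin4 window, nor in the window of a second annotated start of Plin5 (chr17:56117299-56117548). It is a common motif, present in 14.0% of 32817 promoter windows of this length. A FOXO motif (GTAAACA, in 3.16% of windows), a glucocorticoid receptor half-site (AGAACA, in 16.1%), an E-box (CACGTG, in 6.02%) and a CRE half-site (TGACG, in 17.7%) were searched on both strands as well. None of these letters occurred in the 3 windows shown, and 3 other members held a match in a window. Mgll held the FOXO motif, the glucocorticoid receptor half-site and the E-box at 241, 178 and 44 bases before 1 of its starts, Lipe an E-box at 155 bases before 1 start and a FOXO motif at 119 bases before another, and G0s2 a CRE half-site at 246 bases before its start. A direct repeat of the nuclear receptor half-site spaced by 1 base (in 0.0335% of windows) and an inverted repeat of the glucocorticoid receptor half-site spaced by 3 bases (in 0.00914%) contain these half-sites and were in no member window. A match describes the sequence only. Promoter windows were on hand for 9 of the 10 members, all but Lpl.

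Lpl (chr8:68880555-68906932), the capillary lipase, measured 598, 821, 693 and 794 CPM in the control libraries and 324, 431 and 516 CPM in the CR libraries of SkM. The groups did not overlap. The log2 fold change was -0.78 (SE 0.17, adjusted p = 0.0153 by edgeR). Its size varied little in the settings that lost the call: it was -0.72 without the control 2 library (adjusted p = 0.054), -0.72 with the adipocyte marker score as a covariate (adjusted p = 0.138) and -0.78 in 1 fit over all 4 groups (adjusted p = 0.277 by edgeR). In trained mice Lpl measured 653, 703, 633 and 522 CPM in the EX group and 481, 96.9 and 97.6 CPM in the CREX group. All 3 CREX values were below the EX range, and those of CREX 2 and CREX 3 stood far below the rest. The log2 fold change of -1.48 had an SE of 0.62 and did not pass the test (adjusted p = 0.159 by edgeR). It was -0.38 (adjusted p = 0.24) without these libraries and -2.69 (adjusted p = 7.82e-07) without CREX 1.

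Over all 4 groups of SkM, 3 of 10 members were DEGs for the main effect of CR, beside 13.9% of all genes tested, and 5 of 10 passed the adjusted p alone, beside 33.6%. The 3 DEGs were Plin4, Plin5 (log2 fold change -1.09, SE 0.22, adjusted p = 0.00212 by edgeR) and Lpl (-1.13, SE 0.33, adjusted p = 0.0175). Without CREX 2 and CREX 3, which leaves 1 CREX library, Plin4 was at 1.24, Plin5 at -0.83 and Lpl at -0.66. All 3 were also called with the slow fibre score as a covariate, with Plin5 at -0.93 (adjusted p = 0.00559) and Lpl at -0.84 (adjusted p = 0.0117 by edgeR). For CREX against EX, the same covariate gave Plin4 at 1.335 (adjusted p = 0.0146 by edgeR). Plin5 at -0.48 (adjusted p = 0.665) and Lpl at -0.84 (adjusted p = 0.51) were not called there. Endothelial genes, led by Cdh5 and Pecam1, summed to 182 to 225 CPM in CR and 130 to 255 CPM in CREX, against 286 to 353 CPM in control and 278 to 345 CPM in EX. Muscle fibre genes summed to 158300 CPM or more in CR and CREX, against 126500 to 140900 CPM in control and 138300 to 157600 CPM in EX. The part of either list in these values was not tested.

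Plin2 and Mgll moved less. Plin2 (chr4:86626910-86670217), the general droplet coat, measured 19.4, 17.9, 16.8 and 18.0 CPM in the control libraries and 13.4, 11.2 and 12.4 CPM in the CR libraries of SkM. The groups did not overlap, and the log2 fold change was -0.54 (SE 0.11, adjusted p = 0.00986 by edgeR), or -0.61 and a DEG without CR 1 (adjusted p = 0.00446). It measured 17.3, 13.2, 13.9 and 17.7 CPM in the EX group and 12.3, 8.38 and 12.4 CPM in the CREX group, a difference of -0.49 (SE 0.17, adjusted p = 0.0777 by edgeR). These groups did not overlap either. Mgll (chr6:88724412-88828360) measured 58.2, 58.8, 62.0 and 50.8 CPM in the control group and 38.2, 44.8 and 43.9 CPM in the CR group (log2 fold change -0.44, SE 0.11, adjusted p = 0.0233 by edgeR). CREX libraries held 56.4, 21.8 and 23.3 CPM of Mgll, the low values again in CREX 2 and CREX 3. For the main effect of CR, Plin2 was at -0.52 (adjusted p = 0.00106) and Mgll at -0.49 (adjusted p = 0.0348 by edgeR), both under 1.5-fold, and the Mgll value was -0.24 (adjusted p = 0.149) without CREX 2 and CREX 3 and -0.72 (adjusted p = 0.000337) without CREX 1.

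The lipase genes that act first in the cascade did not pass the test in SkM. Pnpla2 measured 424, 413, 455 and 367 CPM in the control group and 560, 355 and 414 CPM in the CR group. Its log2 fold change was 0.10 (SE 0.16, adjusted p = 0.725 by edgeR). Lipe ranged from 24.8 to 28.9 CPM in the control group and from 22.9 to 30.9 CPM in the CR group, with a log2 fold change of 0.02 (SE 0.12, adjusted p = 0.945). G0s2 ranged from 7.11 to 10.5 CPM and from 8.77 to 11.5 CPM in the same groups (0.30, SE 0.15, adjusted p = 0.218). In the CREX group G0s2 measured 10.1, 2.42 and 2.54 CPM, the pattern seen for Lpl, Plin5 and Mgll.

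**Figure D2:**
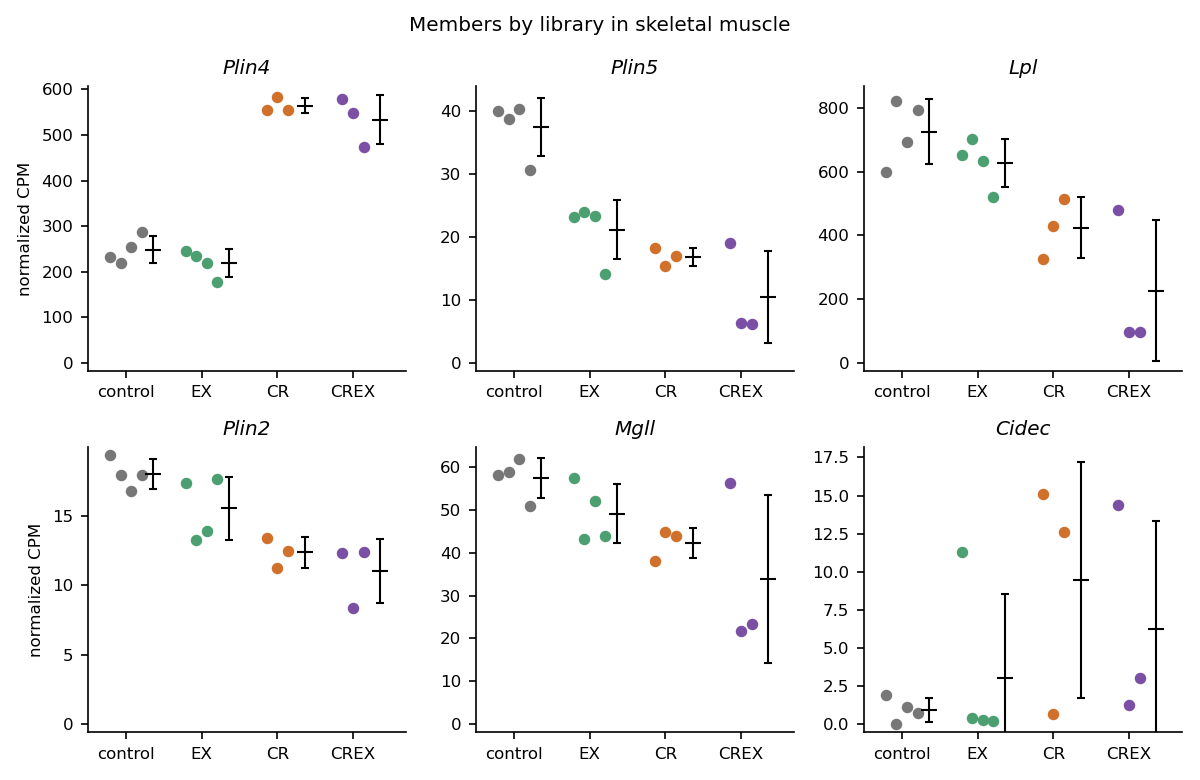
Normalized CPM of 6 members in each SkM library (points, by group in the order of the axis), with the group mean and 1 SD beside them in black. Plin4 is higher in all CR and CREX libraries than in any control or EX library, Plin5 and Lpl are lower in all CR libraries than in any control library, and Cidec is high in 4 libraries of 3 groups.

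Plin1 and Cidec, the adipocyte droplet genes, were at low levels in SkM and high in the same 4 libraries as the adipocyte genes. Cidec measured 1.89, 0, 1.13 and 0.749 CPM in the control group, 15.1, 0.632 and 12.6 CPM in the CR group, 11.3, 0.407, 0.271 and 0.233 CPM in the EX group, and 14.4, 1.27 and 3.01 CPM in the CREX group. Plin1 measured at most 0.362 CPM in the control group, 2.19, 0.356 and 3.44 CPM in the CR group, 4.34 CPM in EX 1 and 4.33 CPM in CREX 1. The Cidec difference between the CR and control groups was 3.33 on the log2 scale (SE 1.04, adjusted p = 0.076 by edgeR). It was 0.08 (adjusted p = 0.959) with the adipocyte marker score as a covariate and 3.88 (adjusted p = 0.00595) without CR 2, the library with few adipocyte transcripts. Plin4 was 584 CPM in CR 2 and 548 CPM in CREX 2, the libraries of their groups with the lowest adipocyte sums, at 6.56 and 7.97 CPM. With the adipocyte marker score as a covariate Plin4 was 1.18 (adjusted p = 0.00474) and Plin5 was -1.24 (adjusted p = 0.00504 by edgeR) for CR against control. The part of adipocyte RNA in the levels of these members was not tested.

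**Figure D3:**
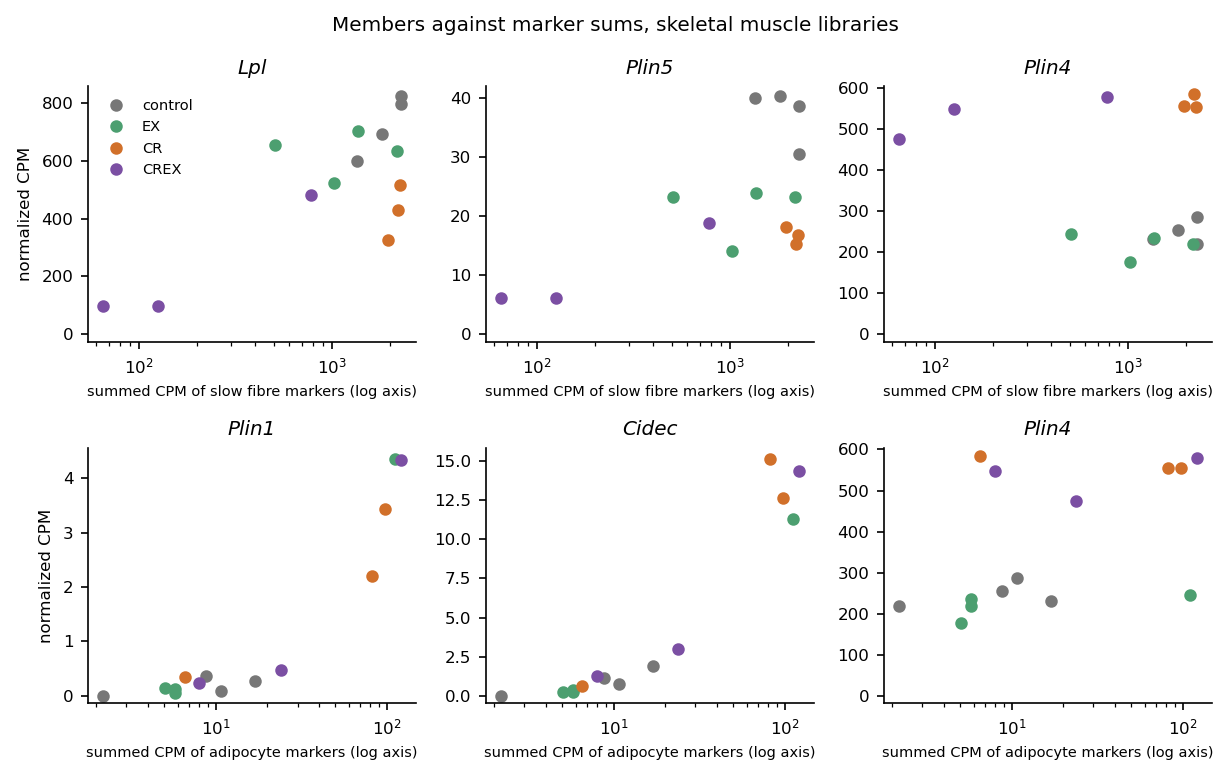
Normalized CPM of members in the 14 SkM libraries against the summed CPM of 8 slow fibre genes (upper row) or 8 adipocyte genes (lower row), both on a log axis, coloured by group. Lpl and Plin5 are lowest in the 2 CREX libraries with slow fibre sums of 126 and 64.8 CPM, Plin1 and Cidec are high in the 4 libraries with adipocyte sums of 82.2 CPM or more, and the CR and CREX libraries hold the highest Plin4 levels at both ends of both axes.

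No member passed the test for training alone in SkM. Of the 9 members tested in the EX group compared to the control group, 0 were DEGs by edgeR, beside 0.0775% of all genes. By edgeR, 3 members and 884 of all 12907 genes tested had an unadjusted p under 0.05. DESeq2 called 1 member, Plin5, and 49 genes in all. Plin5 ranged from 14.1 to 23.9 CPM in the EX group, below the control range of 30.6 to 40.3 CPM. Its log2 fold change was -0.83 (SE 0.15, adjusted p = 0.0989 by edgeR), and -0.67 (adjusted p = 0.0332) without EX 4, the lowest library. In the CREX group compared to the CR group 0 of 10 members and 0% of all genes were called by edgeR (unadjusted p under 0.05 for 0 members and 477 genes, 35 genes by DESeq2). The interaction of CR and EX gave 0 members and 0% of all genes as well (unadjusted p under 0.05 for 1 member, G0s2, and 668 genes, 1 gene and 0 members by DESeq2). Without the CREX 1 library 4 members, Mgll, Lpl, G0s2 and Plin5, were called in the CREX group compared to the CR group, and 2 members, Lpl and G0s2, for the interaction.

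In BAT, 1 of 10 members, Plin1, was a DEG between the CR and control groups, beside 10.7% of all genes tested. By adjusted p alone 2 of 10 passed, Plin1 and Pnpla2, beside 20.8%. Both shares were close to those of all genes. The median log2 fold change of the 10 members was -0.23, beside 0.0047 for all genes.

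Plin1 (chr7:79721164-79732904), the adipocyte coat protein that gates lipolysis, measured 516, 536 and 499 CPM in the control libraries and 307, 271, 397 and 323 CPM in the CR libraries of BAT. No library overlapped. The log2 fold change was -0.67 (SE 0.11, adjusted p = 0.00302 by edgeR), a fold change of 0.628. The sum of 8 other adipocyte genes overlapped between these groups, at 1504 to 1804 CPM in the control group and 1486 to 1764 CPM in the CR group. Brown adipocyte genes had lower sums in the CR group (4499 to 5285 CPM) than in the control group (6619 to 7711 CPM) of BAT, as did endothelial genes (282 to 371 against 407 to 451 CPM) and macrophage genes, led by C1qa and C1qb (35.9 to 53.1 against 56.3 to 59.4 CPM). Their part in the BAT results was not tested. With the muscle marker score as a covariate the Plin1 value was -0.74 (adjusted p = 0.000911). In trained mice Plin1 measured 428, 437, 385 and 463 CPM in the EX group and 344, 402, 245 and 366 CPM in the CREX group, which overlapped (log2 fold change -0.34, SE 0.13, adjusted p = 0.146 by edgeR).

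Pnpla2 (chr7:141455188-141460743), the gene of ATGL, measured 2697, 2680.4 and 2838 CPM in the control libraries and 3469.5, 3645, 3412 and 3226 CPM in the CR libraries of BAT. All CR libraries lay above the control range. The log2 fold change was 0.33 (SE 0.065, adjusted p = 0.00632 by edgeR), which is under 1.5-fold. In trained mice it measured 2158, 2681, 2398 and 2767 CPM in the EX group and 3044, 3329.7, 3366 and 3359.6 CPM in the CREX group. These groups did not overlap either (log2 fold change 0.38, SE 0.089, adjusted p = 0.0296 by edgeR). Its inhibitor gene G0s2 measured 222, 115 and 232 CPM in the control group and 66.9, 86.8, 176 and 79.5 CPM in the CR group of BAT. The groups overlapped through CR 3, and the log2 fold change of -0.88 (SE 0.44, adjusted p = 0.22 by edgeR) did not pass the test.

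Plin4 (498, 550 and 472 CPM in the control group) measured 241, 132, 435 and 247 CPM in the CR group of BAT. All CR values were below the control range, the opposite of the order in SkM. The log2 fold change was -0.94 (SE 0.39, adjusted p = 0.153 by edgeR). CR 3 held the highest CR value of every member except Pnpla2, not of Plin4, G0s2 and Plin1 alone. It also held the most muscle transcripts of the CR group, 1609 CPM, and their part in these values was not tested. Without CR 3, Plin4 was -1.30 (adjusted p = 0.0222) and G0s2 -1.29 (adjusted p = 0.0424), and 3 members were then called.

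The remaining members did not pass the test in BAT CR mice. Lipe (chr7:25379527-25398486) measured 958, 957 and 972 CPM in the control group and 731, 767, 983 and 789 CPM in the CR group (log2 fold change -0.23, SE 0.096, adjusted p = 0.105 by edgeR). The control libraries lay close together, and CR 3 was the one CR library above them. Plin2 ranged from 281 to 393 CPM in the CR group and from 369 to 512 CPM in the control group (-0.38, adjusted p = 0.0907). Mgll was at -0.22 (adjusted p = 0.0831), Plin5 at -0.19 (adjusted p = 0.246), and Lpl and Cidec were at 0.07 and 0.03 on the log2 scale (adjusted p = 0.707 and 0.797).

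**Figure D4:**
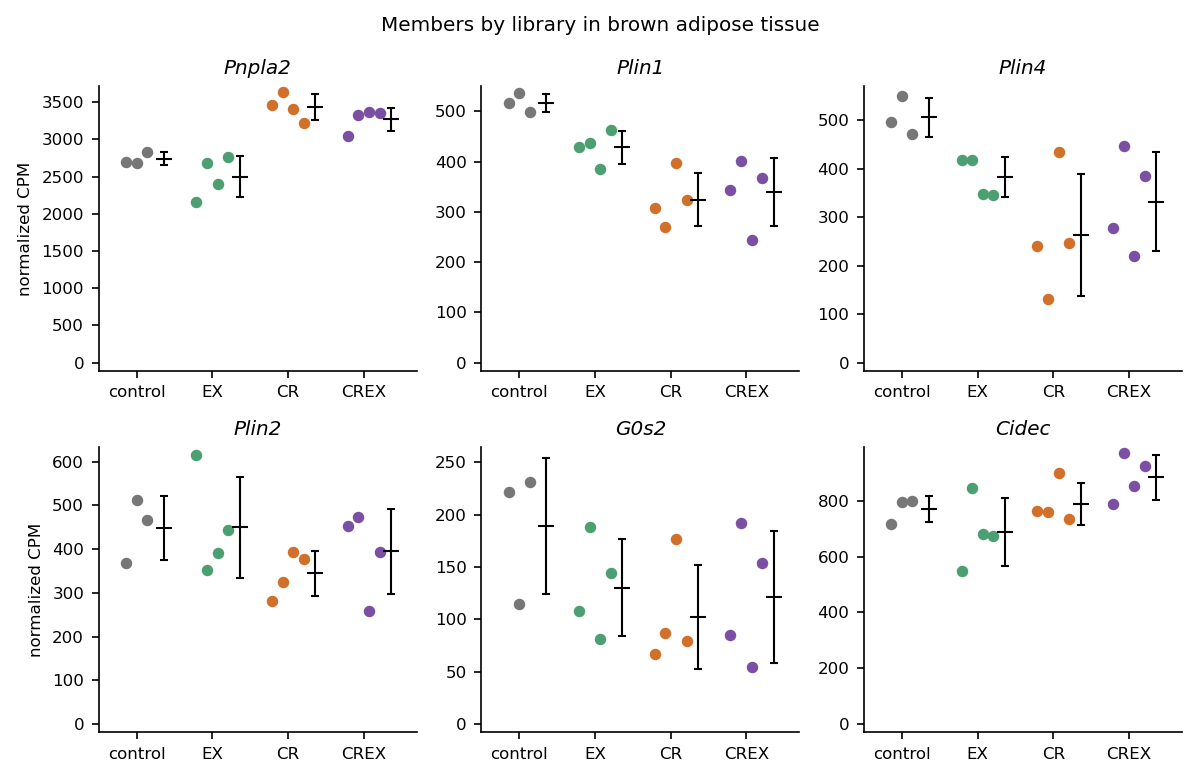
Normalized CPM of 6 members in each BAT library (points, by group in the order of the axis), with the group mean and 1 SD beside them in black. Pnpla2 is higher in all CR and CREX libraries than in any control or EX library, Plin1 and Plin4 are lower in all CR libraries than in any control library, and the Cidec groups overlap.

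Over all 4 groups of BAT, 0 of 10 members were DEGs for the main effect of CR by edgeR and 0 by DESeq2, beside 11.6% of all genes tested. An unadjusted p under 0.05 by edgeR was held by 4 of 10 members and by 6064 of all 13922 genes tested. By adjusted p alone 2 of 10 passed, beside 33.3% of all genes, a share below the background. These were Pnpla2 at 0.36 (SE 0.054, adjusted p = 0.00013) and Plin1 at -0.50 (SE 0.10, adjusted p = 0.00182). Plin4 was at -0.55 (SE 0.24, adjusted p = 0.0886), and was called without CR 3 (-0.67, adjusted p = 0.044) or without CREX 2 (-0.66, adjusted p = 0.0398). Pnpla2 was higher in 8 of 8 CR and CREX libraries than in any of the 7 control and EX libraries. Between the CREX and EX groups 0 of 10 members were called by edgeR and 0 by DESeq2, beside 4.48% of all genes. Here 4 members and 3392 of all 13251 genes tested had an unadjusted p under 0.05 by edgeR.

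Training gave no call among the members in BAT. In the EX group compared to the control group 0 of 10 members and 0% of all genes were called by edgeR, with 3 members and 974 genes at an unadjusted p under 0.05, and DESeq2 called 0 members and 36 genes. The 3 members were Plin1, Plin4 and Plin5, each lower in all EX libraries than in any control library, at -0.26, -0.40 and -0.23 on the log2 scale (adjusted p = 0.471, 0.369 and 0.528 by edgeR). Groups this small can separate by chance, and how many of all genes did so was not counted. The smallest adjusted p over all genes in this comparison was 0.109 by edgeR. In the CREX group compared to the CR group 0 members and 0.00763% of all genes were called by edgeR, and 0 members by DESeq2. An unadjusted p under 0.05 by edgeR was held by 0 members and 1003 genes. The interaction of CR and EX gave 0 members and 0% of all genes (unadjusted p under 0.05 for 1 member, Mgll, and 800 genes, 0 members and 3 genes by DESeq2).

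**Figure D5:**
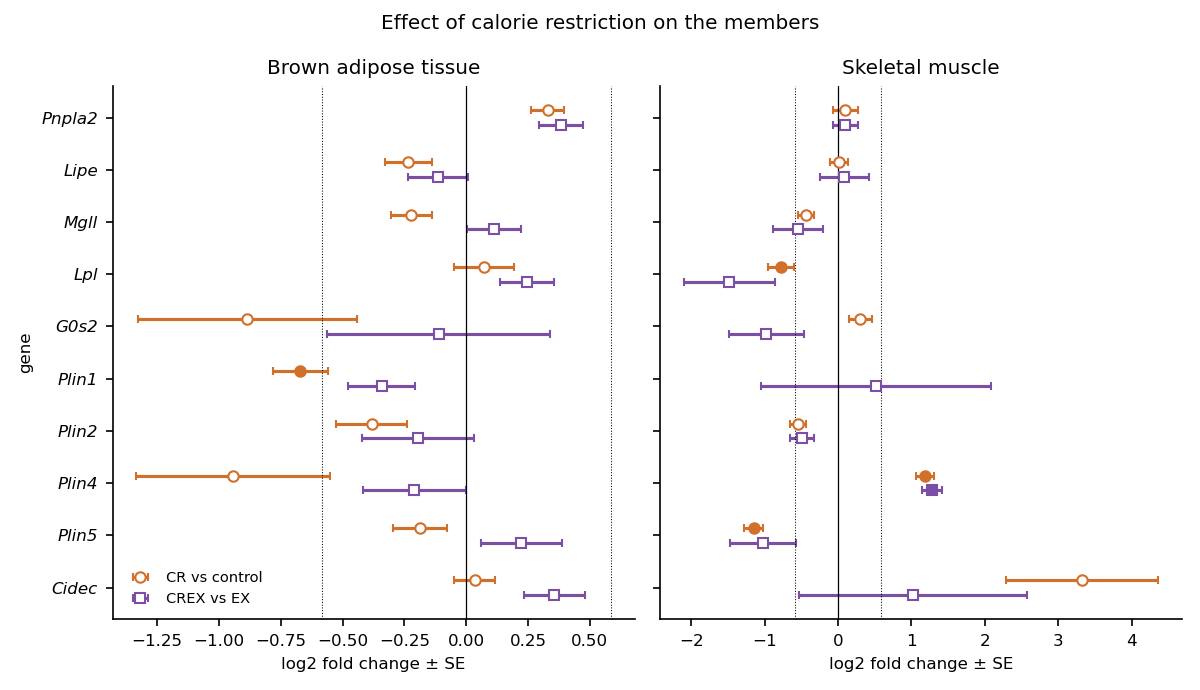
Log2 fold change (horizontal axis, ± SE) of each member for CR against control (circles) and of CREX against EX (squares), in BAT and in SkM. Filled symbols are DEGs, dotted lines mark 1.5-fold, the panels differ in scale, and Plin1 was not tested in the first comparison in SkM. Plin4 lies on opposite sides of 0 in the tissues, at -0.94 in BAT and 1.19 in SkM for the CR group.

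The difference of the CR effect between tissues was tested as an interaction term in edgeR, with sedentary mice of each tissue. It was called for 4 of 10 members, beside 6.29% of all genes tested. Plin1, among the 4, had not passed the filter on low counts in SkM alone and entered this fit through its BAT counts. For Plin4 the CR effect in BAT minus that in SkM was -2.11 on the log2 scale (SE 0.39, adjusted p = 0.00584), the effects having opposite signs. For Plin5 the CR effect was 0.97 higher in BAT than in SkM (SE 0.19, adjusted p = 0.00536), and for Lpl 0.86 higher (SE 0.25, adjusted p = 0.0432). The Plin1 difference of -4.11 (SE 0.86, adjusted p = 0.0165) rests on SkM counts of 0 to 8 per control library and 9 to 90 per CR library, high in CR 1 and CR 3 as the adipocyte genes were. The Lpl difference lost its call, at an adjusted p of 0.0555 to 0.0968, with the value between 0.71 and 0.96, when any 1 of 11 libraries was left out (BAT CR 1, 3 or 4, BAT control 1, 2 or 3, SkM CR 1 or 2, SkM control 2, 3 or 4). In trained mice 1 of 10 members, Plin4, differed between tissues, beside 4.57% of all genes (-1.49, SE 0.27, adjusted p = 0.00794 by edgeR), and without SkM libraries CREX 2 and CREX 3 the difference was -1.60 (adjusted p = 0.0805).

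Genes whose products act together with the members were compared as well. Abhd5, which encodes the co-activator of ATGL, measured 76.8 to 106 CPM in the 3 control libraries and 112 ± 2.81 CPM in CR (SD, n = 4) of BAT, and 30.3 ± 1.26 CPM in control (SD, n = 4) and 25.7 ± 0.859 CPM in CR (SD, n = 3) of SkM. For the main effect of CR, Abhd5 rose by 0.31 in BAT (adjusted p = 0.00377) and fell by 0.25 in SkM (adjusted p = 0.0037 by edgeR), both under 1.5-fold. The difference of these CR effects between tissues in sedentary mice was 0.50 (SE 0.13, adjusted p = 0.0328 by edgeR), under 1.5-fold. In trained mice (CREX against EX) Abhd5 was called for the difference between tissues. Adrb3, the adipocyte adrenergic receptor that starts lipolysis, fell by 0.78 in BAT for the main effect (SE 0.13, adjusted p = 0.00045), with 183 ± 19.5 CPM without CR (SD, n = 7) and 107 ± 23.9 CPM with it (SD, n = 8). Between the CR and control groups alone the Adrb3 value was -0.85 (SE 0.25, adjusted p = 0.0598 by edgeR). In SkM it was at most 2.26 CPM.

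Plin3, the perilipin found in most tissues, was at 0.09 in BAT (adjusted p = 0.427) and 0.18 in SkM (adjusted p = 0.385) for the main effect of CR. Cidea, the brown adipocyte relative of Cidec, ranged from 1235 to 1739 CPM in BAT and was at -0.11 (adjusted p = 0.172 by edgeR). Gpihbp1, which anchors Lpl to the capillary wall, rose by 0.43 in BAT (SE 0.089, adjusted p = 0.00162), under 1.5-fold, and was at -0.06 in SkM (adjusted p = 0.773). Angptl4, whose product inhibits Lpl, was upregulated by 1.44 in SkM for the main effect (SE 0.39, adjusted p = 0.013), with 4.68 ± 3.09 CPM without CR (SD, n = 8) and 12.0 ± 5.84 CPM with it (SD, n = 6), ranges that overlapped. Between the CR and control groups alone the Angptl4 value was 1.08 (SE 0.41, adjusted p = 0.114 by edgeR). It was at 0.22 in BAT for the main effect (adjusted p = 0.348).

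Wider lists of the pathway were counted for the main effect of CR, where 11.6% of all genes tested in BAT and 13.9% in SkM were DEGs in either direction. Of 25 tested genes of lipolysis control, 1 was called higher and 5 lower in BAT, with 20 of the 25 at negative values (median -0.20, beside -0.0014 for all genes). Of 22 tested in SkM, 6 were called higher and 2 lower, with 13 of the 22 at negative values (median -0.07, beside 0.0059). Akap1, which anchors protein kinase A, fell in both tissues, by 0.92 in BAT (adjusted p = 1.92e-06) and by 0.81 in SkM (adjusted p = 8.83e-05 by edgeR). Npr3, the natriuretic peptide clearance receptor, fell by 0.60 in BAT (adjusted p = 0.000555). Adora1, the adenosine receptor that restrains lipolysis in fat cells, fell by 0.67 in BAT (adjusted p = 0.00146) and rose by 2.71 in SkM (adjusted p = 1.87e-05). Acsl1, which activates fatty acids to acyl-CoA, fell by 0.97 in SkM (adjusted p = 0.000112 by edgeR).

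Of 12 other lipases tested in BAT 2 were called higher and 0 lower (5 negative values, median 0.19), and of 11 in SkM 2 were called higher and 0 lower (3 negative values, median 0.08), shares near those of all genes. Pnpla3, a close relative of Pnpla2, rose in both, by 0.64 in BAT (adjusted p = 0.00429) and by 2.47 in SkM (adjusted p = 6.4e-05 by edgeR), where it went from 2.66 ± 0.687 CPM without CR (SD, n = 8) to 14.8 ± 7.31 CPM with it (SD, n = 6). Lipg, the endothelial lipase, rose by 0.68 in BAT (adjusted p = 0.0148), and the carboxylesterase gene Ces1f by 2.81 in SkM (adjusted p = 0.0153 by edgeR). Ces1f was near the floor in SkM, at no more than 2.18 CPM. It held 0 to 3 counts per control library and a median of 0.357 CPM in the CREX group. Among other droplet proteins 1 of 15 was called higher in BAT, Cideb by 0.72 (adjusted p = 0.000897), and 1 of 14 in SkM, Acsl3 by 0.73 (adjusted p = 0.0142), with none called lower (6 and 8 had negative values, medians 0.07 and -0.05).

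Of the genes that handle Lpl, 1 of 17 was called in BAT, where Apoc1 fell by 0.61 (adjusted p = 6.19e-05). In SkM 5 of 15 were called, all higher. Negative values were held by 6 of 17 in BAT and 8 of 15 in SkM (medians 0.06 and -0.06). Sort1, a sorting receptor, rose by 0.93 in SkM (adjusted p = 0.000251 by edgeR). The other upregulated genes beside Angptl4 and Sort1 were Apoc1, Apoc3 and Apoa5, apolipoprotein genes best known from the liver. Apoc3 measured 1.32 to 7.60 CPM and Apoa5 0.702 to 5.26 CPM in the CR group, against at most 0.452 and 0.140 CPM in the control group. In the CREX group their medians were 0.0821 and 0 CPM, and neither passed the filter on low counts in the comparison with the EX group. Both were near the level of a few counts in most libraries.

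Likeness to the members was described by Pearson's r of log2 CPM over the libraries of a tissue, which share the effect of CR. In SkM the genes most like Plin4 were Hif3a (r = 0.977), Fkbp5 (r = 0.966) and Foxo3 (r = 0.966, n = 14 libraries each). In BAT those most like Pnpla2 were Prodh (r = 0.961), Fuca1 (r = 0.959) and Fbxo31 (r = 0.954, n = 15 libraries each).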

How the data were processed

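BAT (15 libraries) and SkM (14 libraries) were compared. Per the labels and the study's methods, the authors mapped reads to mm10 with STAR 2.7.10a and deposited, by gene symbol, the expected counts that RSEM estimates, with no normalization. The version given for RSEM differs between sources, and the annotation and strand setting are not given in the sources used here. Each library is 1 mouse, so p-values within a tissue measure the spread between these mice. Comparisons between tissues treated all libraries as independent, although BAT and SkM libraries may share mice. No libraries of a group agreed within counting noise.

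Expected counts were rounded and tested with edgeR 4.0.16 (robust quasi-likelihood, TMM, filterByExpr, R 4.3.3) on the libraries of the groups compared. SE is the log2 fold change divided by the square root of F. The main effect and interaction used all 4 groups of a tissue. CPM used TMM factors of all libraries of a tissue, and the tissue comparison was made in 1 fit of the control libraries. Lengths are merged exons of GENCODE M21, and coordinates are RefSeq's for GRCm38.p6. Marker scores are means of log2(CPM + 1). A floor of 3 counts covers counting error only. On simulated data of the same depth edgeR called 151 of 195 genes changed 2-fold among 13110 for CR against control in BAT, and 132 of 196 among 12984 in SkM. It also called 15 unchanged genes in BAT and 8 in SkM. For the SkM main effect of CR it called 177 of 200 changed genes and 1 other gene. For the tissue difference of the CR effect it called 105 of 200 and 3 others.

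The members, lists and tests were chosen with earlier results of these data known. Named were all members, Abhd5, Adrb3, Plin3, Cidea, Gpihbp1 and Angptl4, up to 3 called genes with the smallest adjusted p per list and tissue, the 2 most abundant markers per list and the 3 genes most like 1 member per tissue. The 16 of 18 other droplet genes found by symbol were used. Adora1 in BAT and Apoc1 in SkM were named after their values were seen. Alternatives were DESeq2 1.42.0, RLE size factors, no filter, no fold change minimum, 1 fit over all groups, a replicate block, marker score covariates and each library left out; the slow fibre covariate and leaving out SkM CREX 2 and 3 were chosen after seeing the data. Figures used matplotlib 3.10.9 under Python 3.11.15.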

Additional observations from a re-analysis of the deposited data

Results flagged for a closer look

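Each of the 10 members was checked within each group of 4 libraries, and 1 library lay apart from the other 3 in 5 of 50 checks. Chance gives about 1 in 20 for a single check, but members checked in the same libraries are not independent. Pnpla2 was lowest in BAT CREX 1 at 3044 CPM, still above every EX library. Plin5 was lowest in SkM EX 4 at 14.1 CPM. Cidec was highest in BAT CR 3 at 898 CPM, the CR library with the most muscle transcripts. Plin1 at 4.34 CPM and Cidec at 11.3 CPM were highest in SkM EX 1, which held 111 CPM of adipocyte genes against 5.03 to 5.79 CPM in the other EX libraries.

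The CR effect differed between BAT and SkM, by a test of the difference itself in edgeR, for Plin4 (-2.11 on the log2 scale, and -1.49 in trained mice), Plin5 (0.97), Lpl (0.86) and Plin1 (-4.11). The Plin4 and Plin5 differences in sedentary mice were called in 18 of 18 settings, that of Plin1 in 17 and that of Lpl in 5. Plin1 had not passed the filter on low counts between the CR and control groups of SkM alone.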

How the results depend on the processing

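No call of a member changed direction under any alternative. Of 2366 alternative values of member fold changes, 2310 stayed on the same side of the threshold, 18 lost the call and 38 gained it. Plin4 and Plin5 in SkM CR mice were called in 14 of 14 settings, Plin1 in BAT CR mice in 13 of 13, and Lpl in SkM CR mice in 11 of 14.

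Counts of members called moved as follows. With no fold change minimum they were 2 for CR and 1 for CREX against EX in BAT, 5 for CR in SkM, and 2 and 5 for the CR main effect in BAT and SkM. DESeq2 called 2 for CREX against EX in SkM, 1 for EX in SkM and 2 for the CREX tissue difference. 1 fit over all groups called 3 for CREX against EX in SkM. The adipocyte covariate gave 2 for that comparison and 6 for the SkM CR main effect, adding Mgll, Plin2 and Cidec. Without SkM CREX 2 and 3 the CREX tissue difference had 0 (659 genes became 56), with Plin4 at -1.60 (adjusted p = 0.0805) and 1 CREX library left in SkM.

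Replicate numbers did not pair the libraries: same-numbered libraries deviated together with a mean r between -0.259 and 0.171 over the 8 comparisons. The replicate block took the tissue difference of the CR effect from 4 to 2 members (Lpl at 0.84, adjusted p = 0.0613, and Plin1 at -4.04, adjusted p = 0.05), added Cidec to the 3 members called for CR and for the CR main effect in SkM, 4 in each, and changed no other count of members. Over all genes it gave 929 DEGs in place of 1428 for CR in BAT, 646 in place of 1163 for CREX against EX in SkM, 1 in place of 0 and 51 in place of 1 for EX against control and CREX against CR in BAT, and 1 in place of 10 for EX in SkM.

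Leaving out each library in turn gave 1 to 3 members called for CR in BAT, 0 to 0 for the other pairwise comparisons there, 2 to 5 for CR, 1 to 5 for CREX against EX, 0 to 1 for EX and 0 to 4 for CREX against CR in SkM, 0 to 1 and 3 to 5 for the CR main effect in BAT and SkM, 0 and 0 to 2 for the interactions, 3 to 4 for the CR and 1 to 4 for the CREX tissue difference. The highest counts came without BAT CR 3 (adding G0s2 and Plin4), SkM CR 2 (Plin1 and Cidec), SkM CREX 1 (Mgll, Lpl, G0s2 and Plin5), SkM EX 4 (Plin5) and, for the SkM main effect, SkM EX 1 (Plin1 and Cidec). The lowest for CR in SkM came without control 2 (Lpl). The CR main effect in BAT gained Plin4 without CR 3 or CREX 2, and the CREX tissue difference gained Cidec without SkM EX 1.

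Counts over all genes moved by more than 1.5 times for some: CR in SkM had 637 DEGs with the adipocyte covariate in place of 1264, and CREX against EX in SkM had 52 with the slow fibre covariate, 290 without CREX 2 and 3, and 343 to 2570 with 1 library left out. Without a fold minimum counts were 2776 and 1061 for CR and CREX against EX in BAT and 1781 for CREX against EX in SkM, and 4637 and 4567 for the main effects. DESeq2 gave 49 for EX in SkM, 30 for CREX against CR in BAT and 989 for the CREX tissue difference, and no filter gave 7 for EX in BAT, 3 for CREX against CR in BAT and 31 for EX in SkM. The cause of these shifts was not tested. Plin1 and Cidec in SkM are limited by depth, at no more than 104 and 345 counts per library.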
